A study of Sus scrofa with 12 samples.

Results

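The genes of the proteasome, the protease that degrades ubiquitin-tagged proteins, were described in longissimus dorsi, a back muscle, of Laiwu and Yorkshire pigs. Members were the rows of the deposited gene table whose symbol starts with PSMA, PSMB, PSMC, PSMD, PSME or PSMF followed by a number, leaving out PSMB8 and PSMB9. The rule took 38 of 23271 listed genes, and it used names only, not measured values. The groups were 6 libraries of Laiwu pigs, a native Chinese breed with much intramuscular fat, and 6 libraries of Yorkshire pigs, a lean Western breed, all of frozen muscle from animals described as equal in weight. No treatment, age or sex was given in the labels, and these do not say whether each library is an animal of its own, so the p-values cover only the spread between these libraries, which may be technical. The comparison addresses whether the level of these transcripts differs between the breeds.

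The proteasome is a barrel with a cap at one or both ends. The barrel, or core particle, stacks outer rings of alpha subunits, which gate the entrance, on inner rings of beta subunits, some of which cut peptide bonds. The cap, or regulatory particle, holds a ring of ATPases that unfold and feed the substrate, and non-ATPase subunits that bind ubiquitin, cleave it off and hold the parts together. Other caps, the activators, open the barrel without ubiquitin. In skeletal muscle this machinery carries much of the turnover of myofibrillar protein, and its genes are known to be induced together during wasting.

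Levels were compared in FPKM, read counts scaled by gene length and library total. Library totals ran from 54961358 to 67285809 counts, and single members had 153 to 19074 counts per library, so none rested on a few reads. Each of the 38 members passed the filter of 0.5 FPKM on its mean level and was tested. Muscle markers were high, with ACTA1 at 41624 ± 6244 FPKM in Laiwu pigs and 43899 ± 6523 FPKM in Yorkshire (SD, n = 6 each). Slow fibre markers had a summed level of 507.6 to 2254 FPKM in Laiwu pigs and 1222 to 2466 FPKM in Yorkshire (5 of 6 markers in the table), and all 5 had a log2 fold change, Laiwu minus Yorkshire, below 0, with 0 called. Of the adipocyte markers, 4 were tested, all 4 above 0 and at an unadjusted p under 0.05 by edgeR, with 0 called. The 5 endothelial markers (3 above 0) and the 5 fibroblast markers (5 above 0) had 0 called and 0 at an unadjusted p under 0.05. Members lay on 14 chromosomes of the Sscrofa11.1 build, and 17 of them overlapped a listed gene on the opposite strand, PSME1 and PSMA2 by only 3 bases each. The library kit marks strand, but no source used here says whether counting used it, so reads in the shared part of such pairs may not be told apart. PSME2 lay wholly within the span of RNF31, which averaged 4.53 FPKM, and PSMA1 lay for 71.4% of its span within PDE3B, which averaged 0.373 FPKM.

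Proteasome transcripts were abundant in this muscle. The median member averaged 26.9 FPKM over the 12 libraries, against 3.77 FPKM for the median of 11205 tested genes, and 35 of the 38 members lay above that median. The mean level of single members ran from 1.29 FPKM (PSMB10) to 106.3 FPKM (PSMC5), with 8 members over 50 FPKM and 5 under 5 FPKM. Summed over members, the level was 1118 to 1462 FPKM with a median of 1161 FPKM in Laiwu, and 1086 to 1378 FPKM with a median of 1177 FPKM in Yorkshire. The ranges of the breeds overlapped, and the highest sum was that of Laiwu 3.

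**Figure D1:**
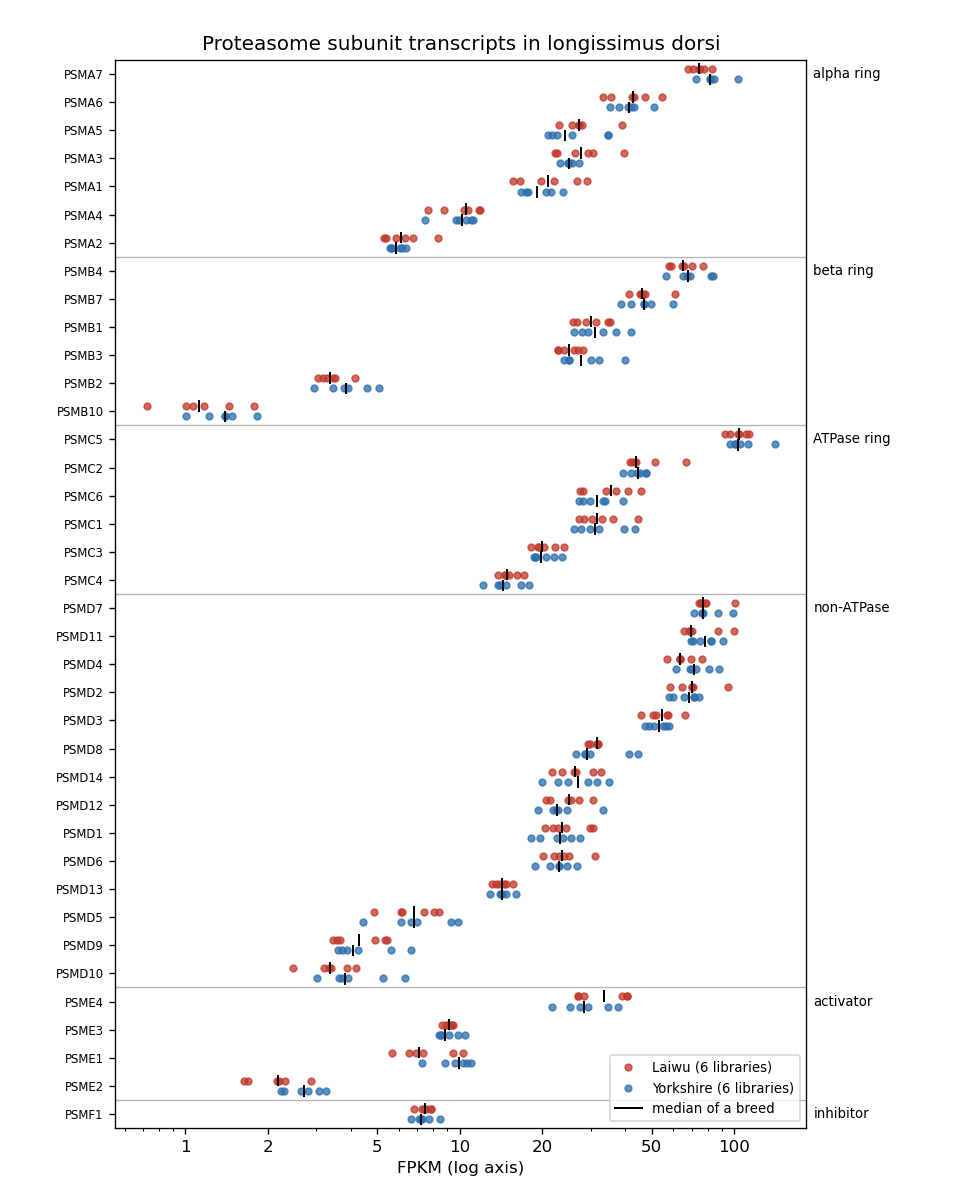
FPKM of the 38 proteasome subunit genes (rows, grouped by ring or cap) on a log axis, with 1 point per library for 6 Laiwu libraries (red, upper points of each row) and 6 Yorkshire libraries (blue, lower points) and a black bar at each breed's median. Members differ from each other far more, from 1.29 to 106.3 FPKM on average, than the breeds differ within any row, and the points of the breeds overlap in all 38 rows.

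The alpha ring is built of 7 different subunits, each a gene of its own, and their levels spanned 13-fold. PSMA7 was the highest, with 67.7, 74.6 and 82.9 FPKM (lowest, median and highest library) in Laiwu and 72.2, 81.8 and 103.3 FPKM in Yorkshire. PSMA6 followed at a mean of 42.2 FPKM, then PSMA5, PSMA3 and PSMA1 at 27.5, 26.8 and 20.6 FPKM. PSMA4 averaged 10.1 FPKM. PSMA2 was the lowest, with 5.29, 6.09 and 8.29 FPKM in Laiwu pigs and 5.57, 5.87 and 6.36 FPKM in Yorkshire. PSMA4 and PSMA2 were also the longest genes of the ring. Their lengths, as the files' counts and FPKM imply, were 6856 and 6016 bases, against 1304 bases for PSMA7. Over the 38 members level and length correlated at a Spearman's rho of -0.470, and over all tested genes at -0.113, across genes, which are not independent replicates. Whether the annotated length matches the transcribed one was not tested, so the order of levels within a ring depends on the annotation.

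Of the beta ring, 6 members were in the set. PSMB4, a structural subunit, was the highest, with 57.9, 64.9 and 76.7 FPKM in Laiwu pigs and 56.6, 68.1 and 83.4 FPKM in Yorkshire. PSMB7 (chromosome 1, 265172237 to 265235387), the subunit that cuts after basic residues, had 41.4, 46.1 and 60.6 FPKM in Laiwu pigs and 38.8, 46.8 and 59.6 FPKM in Yorkshire. The structural subunits PSMB1 and PSMB3 averaged 31.5 and 27.2 FPKM. PSMB2, also structural, averaged 3.69 FPKM over a length of 6958 bases and had 3.04, 3.36 and 4.15 FPKM in Laiwu pigs and 2.93, 3.84 and 5.06 FPKM in Yorkshire. The other catalytic subunits of the standard core are not members by symbol. One of them, PSMB6, was listed under its identifier ENSSSCG00000017913 with that name in the table's description column, and averaged 43.4 ± 4.60 FPKM in Laiwu pigs and 50.8 ± 9.45 FPKM in Yorkshire pigs (SD, n = 6 each). Its log2 fold change, Laiwu minus Yorkshire, was -0.25 ± 0.13 (SE), with an edgeR adjusted p of 0.912, and its mean level of 47.1 FPKM was near the 47.5 FPKM of PSMB7. PSMB5 was not analysed here.

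PSMB10 (chromosome 6, 28544916 to 28548152) encodes the interferon-inducible subunit that takes the place of PSMB7 in the immunoproteasome, the form that shapes peptides for antigen presentation. It was the lowest of all members in FPKM, with 0.722, 1.12 and 1.78 FPKM in Laiwu pigs and 1.001, 1.40 and 1.83 FPKM in Yorkshire. Expressed as a share of PSMB7, it stood at 1.57%, 2.31% and 4.29% in Laiwu and at 2.14%, 3.07% and 3.69% in Yorkshire. The implied length of PSMB10 was 3283 bases, slightly longer than its listed span, against 1066 bases for PSMB7. Its FPKM and its share of PSMB7 thus depend on the annotation. In counts per library PSMB10 had 155 to 381, against 153 to 337 for PSME2. The difference in the log2 ratio was -0.27 (Laiwu -5.37 ± 0.47, Yorkshire -5.10 ± 0.35; SD, n = 6 each), with p = 0.312 by an exact two-sided permutation test over libraries, where 0.00216 is the smallest p possible. The library with the highest PSMB10 in each breed also had the highest summed level of the leukocyte markers. The C1q genes weigh most in the Laiwu sum. Their highest Laiwu values were 10.6 (C1QA), 6.01 (C1QB) and 17.3 FPKM (C1QC), and those of the other markers at most 2.89 FPKM (CSF1R). Laiwu 4 had 1.78 FPKM of PSMB10 and a summed level of 43.2 FPKM over the 10 macrophage and leukocyte markers, for which the Laiwu range was 14.2 to 43.2 FPKM with a median of 18.2 FPKM. Yorkshire 3 had 1.83 FPKM of PSMB10 and a sum of 37.4 FPKM, for which the Yorkshire range was 15.8 to 37.4 FPKM with a median of 17.3 FPKM. PTPRC, the pan-leukocyte surface marker, averaged 0.951 FPKM in Laiwu pigs (0.672 to 1.16 FPKM) and 0.888 FPKM in Yorkshire (0.268 to 1.57 FPKM). CD3E of T cells was the only marker of the 10 at 0 in any library. The same libraries also had the highest fibroblast marker sums of their breeds, 574.4 FPKM in Laiwu 4 and 402.2 FPKM in Yorkshire 3. Other libraries went both ways. Laiwu 3 was second highest of its breed in PSMB10, at 1.44 FPKM, and in the leukocyte sum, at 23.0 FPKM. Yorkshire 4 was second highest of its breed in PSMB10, at 1.48 FPKM, with a leukocyte sum of 15.8 FPKM. Laiwu 1 had the lowest Laiwu leukocyte sum, 14.2 FPKM, with 1.17 FPKM of PSMB10, above the Laiwu median of 1.12 FPKM. The part of such cells in the level of PSMB10 was not tested, and in bulk RNA fewer cells of a type and less RNA per cell cannot be told apart.

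The ATPase ring has 6 subunits, which spanned 7.07-fold in FPKM and by that measure were the most even of the rings and of the non-ATPase group. PSMC5 (chromosome 12, 15101859 to 15106213) was the highest member of all, with 92.2, 103.9 and 113.3 FPKM in Laiwu pigs and 96.6, 102.9 and 140.8 FPKM in Yorkshire. PSMC2, PSMC6 and PSMC1 averaged 46.3, 33.7 and 33.2 FPKM. PSMC3 and PSMC4 averaged 20.5 and 15.0 FPKM. The implied length was 7295 bases for PSMC3 and 1512 bases for PSMC5, with 7716 to 11307 and 8565 to 13435 counts per library, so this order depends on the annotation. PSMC4 had 13.8, 14.9 and 17.1 FPKM in Laiwu pigs and 12.2, 14.4 and 17.9 FPKM in Yorkshire.

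The 14 PSMD genes formed a high set and a low one. Subunits of the mature cap lay between 14.3 FPKM (PSMD13) and 80.9 FPKM (PSMD7), 11 genes in all. PSMD7, the partner of the deubiquitinase, had 74.5, 77.1 and 100.3 FPKM in Laiwu pigs and 71.5, 76.8 and 98.6 FPKM in Yorkshire. PSMD11, a scaffold subunit of the lid, averaged 77.5 FPKM, and the ubiquitin receptor PSMD4 and the large scaffold PSMD2 averaged 69.5 and 69.1 FPKM. PSMD14, the deubiquitinase that removes the ubiquitin chain at the cap, averaged 27.0 FPKM. PSMD3 and PSMD8 of the lid averaged 53.7 and 32.1 FPKM, and the lid scaffolds PSMD12 and PSMD6 24.5 and 23.5 FPKM. Another large scaffold, PSMD1, averaged 23.9 FPKM.

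The low set held 3 genes whose products are known as chaperones that help to assemble the ATPase ring and leave before the cap is complete. PSMD5 averaged 7.02 FPKM, PSMD9 4.5 FPKM and PSMD10 3.85 FPKM, each below the lowest of the other 11 PSMD genes. Their gene lengths were 2972, 2626 and 1507 bases, within the range of the other members, 779 to 7295 bases. PSMD10 (chromosome X, 88540376 to 88548560), also known as gankyrin, had 2.47, 3.36 and 4.19 FPKM in Laiwu pigs and 3.01, 3.81 and 6.29 FPKM in Yorkshire. Within breeds the 3 genes also varied together. Their deviations from the breed mean correlated at r = 0.685 for PSMD9 with PSMD10, 0.625 for PSMD5 with PSMD9 and 0.596 for PSMD5 with PSMD10, over 12 libraries that share depth and scaling. These genes were grouped after their values were seen. With any 1 library left out these values ran from 0.473 (PSMD5 with PSMD10, without Yorkshire 5) to 0.824 (PSMD9 with PSMD10, without Laiwu 2). Some pairs with other members came near them over the 12 libraries. PSMD5 with PSMD14 was at 0.597, PSMD10 with PSMD8 at 0.586 and PSMD9 with PSMD8 at 0.576. Correlation of this size was thus not particular to the 3 genes.

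Among the activators, PSME4, the large nuclear cap, was the highest, with 27.04, 33.6 and 40.8 FPKM in Laiwu pigs and 21.6, 28.4 and 37.6 FPKM in Yorkshire. PSME3, a nuclear activator, had 8.58, 9.14 and 9.40 FPKM in Laiwu pigs and 8.37, 8.83 and 10.4 FPKM in Yorkshire. PSME1 (chromosome 7, 75161827 to 75164810) and PSME2 (chromosome 7, 75154649 to 75157870) encode the interferon-inducible subunits of a single cap and lie 3956 bases apart. PSME1 had 5.64, 7.13 and 10.2 FPKM in Laiwu pigs and 7.27, 9.93 and 11.01 FPKM in Yorkshire. PSME2 had 1.64, 2.17 and 2.87 FPKM in Laiwu pigs and 2.23, 2.71 and 3.26 FPKM in Yorkshire. For both genes the Laiwu median lay below the lowest Yorkshire library, while the highest Laiwu libraries lay within the Yorkshire range. PSMF1, an inhibitor of the core particle in vitro, was even across libraries, with 6.81, 7.49 and 7.84 FPKM in Laiwu pigs and 6.65, 7.24 and 8.48 FPKM in Yorkshire.

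No proteasome subunit differed between Laiwu and Yorkshire muscle past the threshold. With p-values adjusted by Benjamini-Hochberg over 11205 genes, the quasi-likelihood test of edgeR called 0 of 38 members, where it called 0% of all tested genes. At an unadjusted p under 0.05 it had 0 members, against 4.44% of all tested genes. limma on log2(FPKM + 1) called 0 members, against 0% of all tested genes, and had 2 at an unadjusted p under 0.05, PSME1 and PSME2, against 3.54% of all tested genes. DESeq2 called 0 members, against 0.00893% of all genes with an adjusted p, and had 0 at an unadjusted p under 0.05, against 5.08%. The libraries of the breeds overlapped for all 38 members, and did not overlap for 0.178% of all tested genes. The lowest edgeR adjusted p among members was 0.912.

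The fitted differences were small. The fitted log2 fold change, Laiwu minus Yorkshire, was above 0 for 15 members, where 49.7% of all tested genes were above 0, and below 0 for 23, where 50.3% of all tested genes were. Its median was -0.02 over members and -0.00131 over all tested genes. This split rested on single libraries, with 6 members above 0 without Laiwu 3 and 23 without Yorkshire 5, and 18 without both. By limma on TPM, the FPKM rescaled to an equal sum, 25 members were above 0, where 65.5% of all tested genes were. The 95% interval of the fold change lay within a 2-fold difference in either direction for all 38 members, as for 90.05% of all tested genes, and within a 1.5-fold difference for 34 members, as for 63.4% of all tested genes. The exceptions to the narrower limit were PSME1, PSME2, PSMB10 and PSMD10. The median standard error was 0.122 for members and 0.163 for all tested genes.

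**Figure D2:**
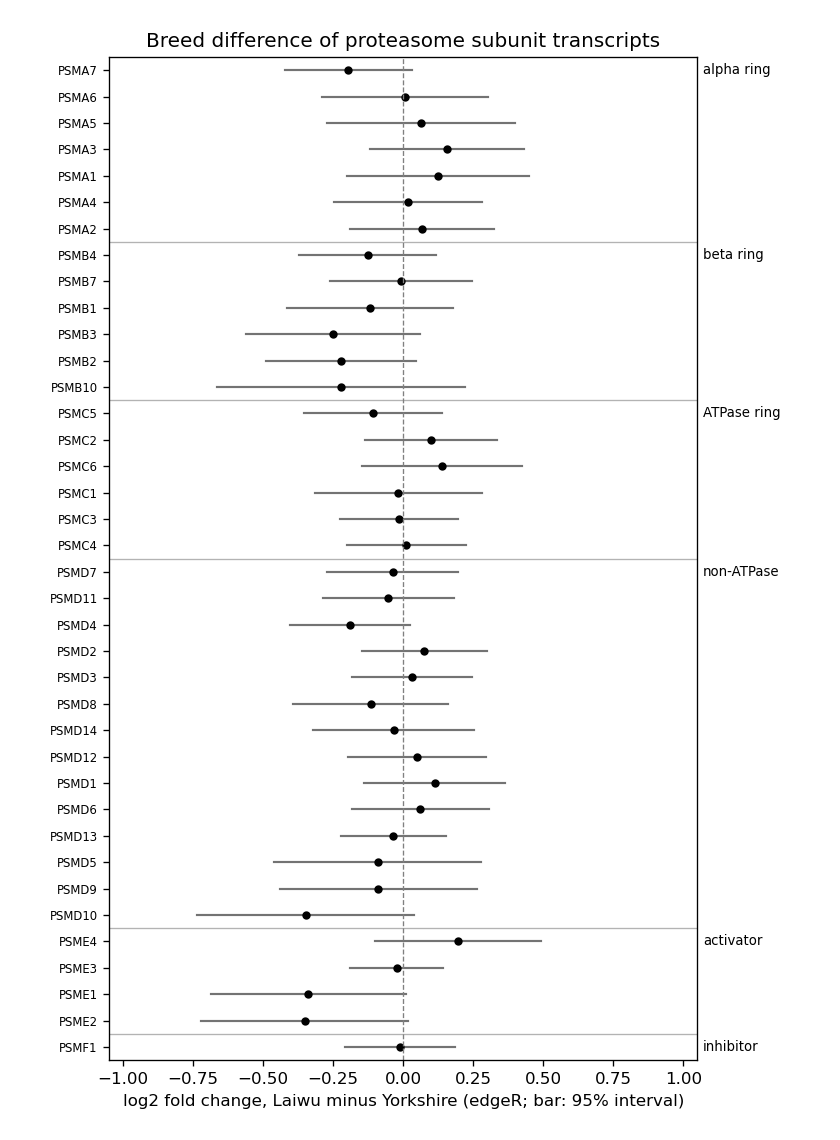
Fitted log2 fold change, Laiwu minus Yorkshire, of the 38 members (points) with 95% intervals from edgeR's quasi-likelihood fit (bars), grouped by ring or cap, with a dashed line at 0. Each of the 38 bars crosses 0; the lowest ends are those of PSMD10 (-0.74) and PSME2 (-0.72), and the widest bar is that of PSMB10 (-0.67 to 0.22).

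The 6 members of smallest p all had a lower fitted level in Laiwu. PSME1 had a log2 fold change of -0.34 ± 0.16 (SE; 95% interval -0.69 to 0.01) and PSME2 one of -0.35 ± 0.17 (-0.72 to 0.02). PSMD10 had one of -0.35 ± 0.18 (-0.74 to 0.04). PSMD4 was at 56.9, 63.5 and 76.2 FPKM in Laiwu pigs and 61.3, 71.1 and 87.6 FPKM in Yorkshire, a log2 fold change of -0.19 ± 0.10. PSMA7 had one of -0.20 ± 0.11 and PSMB2 one of -0.22 ± 0.13. By edgeR the adjusted p was 0.912 for each of these 6 genes. PSME2 lies wholly within the span of RNF31 on the opposite strand, and the part of RNF31 reads in its level was not tested. Leaving out 1 library at a time kept all 6 below 0, and the values nearest to 0 were -0.11 for PSMD4 and for PSMA7 and -0.12 for PSMB2, each without Yorkshire 5. Since the 6 were picked by p in these same libraries, their kept sign is not separate support.

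Of the other named members, PSMB10 had a log2 fold change of -0.22 ± 0.21 (SE), which was -0.38 without Laiwu 4 and -0.11 without Laiwu 5. PSMB7 had one of -0.01 ± 0.12 and PSME3 one of -0.02 ± 0.08. PSMF1 stood at -0.01 ± 0.09. PSME4 was the member with the highest fitted value, 0.19 ± 0.14, and an edgeR adjusted p of 0.912. Its lowest Yorkshire value was that of Yorkshire 5, at 21.6 FPKM, and with any 1 library left out its log2 fold change ran from 0.13 (without Laiwu 2) to 0.26 (without Laiwu 6).

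By ring, the fitted fold change was above 0 for 6 of 7 alpha subunits and for 0 of 6 beta subunits, with 0 called in either. Among the alpha subunits it was 2 of 7 without Laiwu 3. The median over the beta subunits was -0.17, and -0.09 without Yorkshire 5, where 1 of 6 was above 0. The ATPase ring had 3 of 6 above 0 and the PSMD genes 5 of 14. Without Laiwu 3 these were 1 of 6 and 1 of 14, and without Yorkshire 5 they were 5 of 6 and 10 of 14. The difference between rings was not tested.

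Spread within a breed was moderate. The coefficient of variation, the SD over the mean, averaged over the breeds, had a median of 14.8% over members, against 19.8% over all tested genes and 15.3% over the 2310 tested genes that lay between the members' quartiles of level. PSME3, PSMD13 and PSMF1 were the steadiest, at 6.23%, 6.80% and 6.83%. PSMB10 was the most variable, at 25.3%, followed by the chaperones PSMD9 and PSMD5, at 23.9% each. All of these lay within the quartiles of all tested genes, 14.5% and 28.7%. Their mean levels were below the range of the comparison by level, 9.35 to 45.3 FPKM.

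Part of this spread was shared among members and came with particular libraries. In Laiwu 3, 30 of 38 members lay above the Laiwu mean of log2 CPM (counts scaled by library total with TMM factors), with a median deviation of 0.23, while 50.4% of all tested genes did, with a median deviation of 0.00244. In Yorkshire 5, 31 members lay above the Yorkshire mean, with a median deviation of 0.30, while 50.5% of all tested genes did. Most members also lay above the breed mean in Laiwu 1 (28), Laiwu 2 (25) and Yorkshire 6 (23), with median deviations of 0.06, 0.03 and 0.02. At the other end, 7 members lay above the breed mean in Laiwu 6 and 6 in Yorkshire 1. Laiwu 3 held the highest Laiwu FPKM of 25 members, where it held that of 23.8% of all tested genes, and Laiwu 6 held none. Yorkshire 5 held the highest Yorkshire FPKM of 16 members, where it held that of 18.3% of all tested genes, and Yorkshire 3 held that of 14, where it held that of 35.3%. Members took 0.253% to 0.336% of all counts in Laiwu libraries, highest in Laiwu 3, and 0.242% to 0.304% in Yorkshire libraries, highest in Yorkshire 3. FPKM and these shares do not carry the TMM factors. In log2 CPM, which does, 19 of 38 members lay above the breed mean in Yorkshire 3, with a median deviation of -0.00155.

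**Figure D3:**
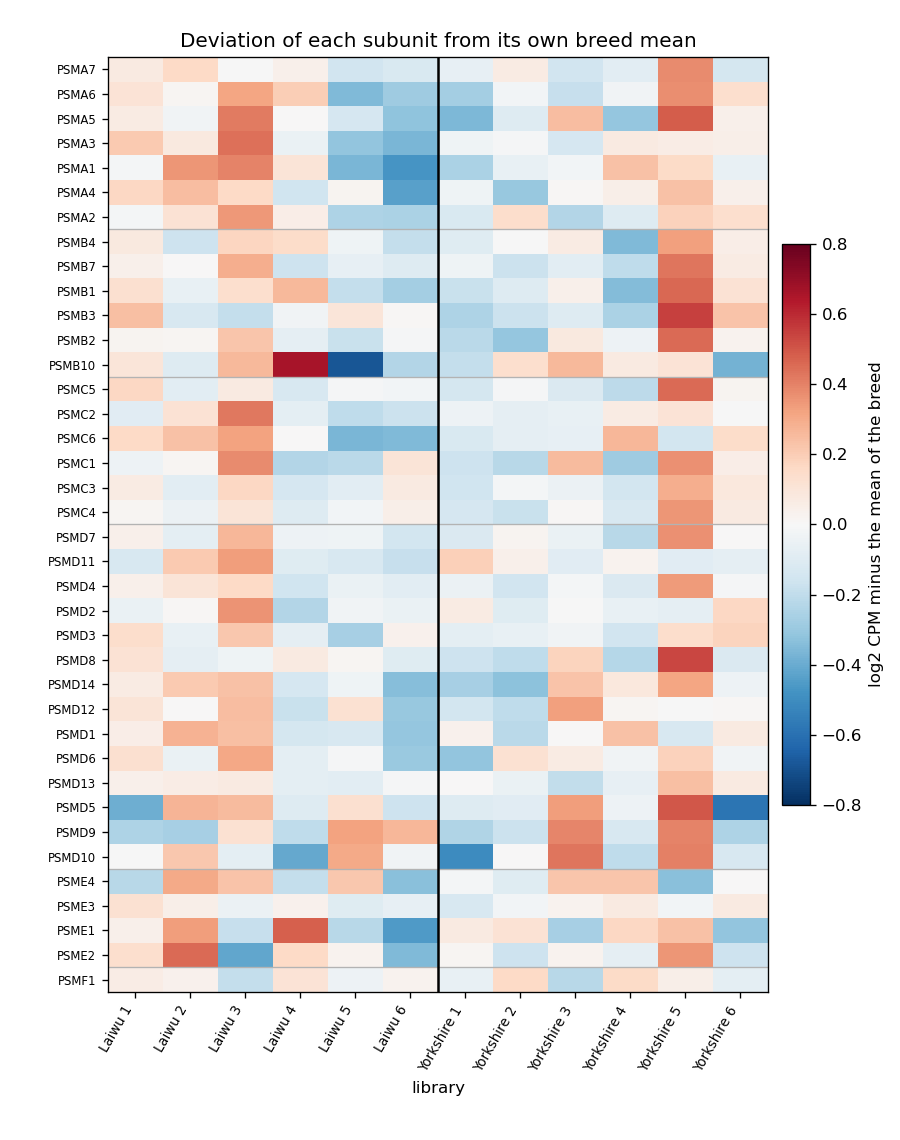
Deviation of each of the 38 members (rows) from the mean of its own breed in log2 CPM, for 6 Laiwu libraries (left of the black line) and 6 Yorkshire libraries (right of it); red is above and blue below the breed mean. The columns of Laiwu 3 and Yorkshire 5 are red for 30 and 31 of 38 members, and that of Laiwu 6 is mostly blue.

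These 2 libraries differed in which members were high. In Laiwu 3 the alpha ring had a median deviation of 0.35, against 0.20 for the beta ring, 0.25 for the ATPase ring and 0.24 for the PSMD genes, while the activators and the inhibitor PSMF1 were at -0.11 and -0.19. In Yorkshire 5 the beta ring was highest at 0.44, with the ATPase ring at 0.32, the PSMD genes at 0.28 and the alpha ring at 0.24. In Yorkshire 5 the deviation went with gene length, at a Spearman's rho of -0.552 over members and -0.418 over all tested genes, so that shorter genes stood higher. In Laiwu 3 the values were 0.0303 over members and 0.0629 over all tested genes. The fitted breed difference itself correlated with gene length at 0.335 over members and 0.344 over all tested genes, and without Yorkshire 5 at 0.156 and 0.179. These are correlations across genes of the same libraries, given as a description, and the part of length in the differences between rings was not tested. Laiwu 3 also had the highest adipocyte marker sum of its breed, 155.9 FPKM against a Laiwu median of 65.3 FPKM, and Yorkshire 5 the highest slow fibre sum, 2466 FPKM against a Yorkshire median of 1818 FPKM. The second highest Laiwu adipocyte sum, 127.8 FPKM, was that of Laiwu 6, where 7 of 38 members lay above the breed mean, and the highest Laiwu slow fibre sum, 2254 FPKM, was that of Laiwu 5, where 9 did. The part of these in the members' levels was not tested.

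**Figure D4:**
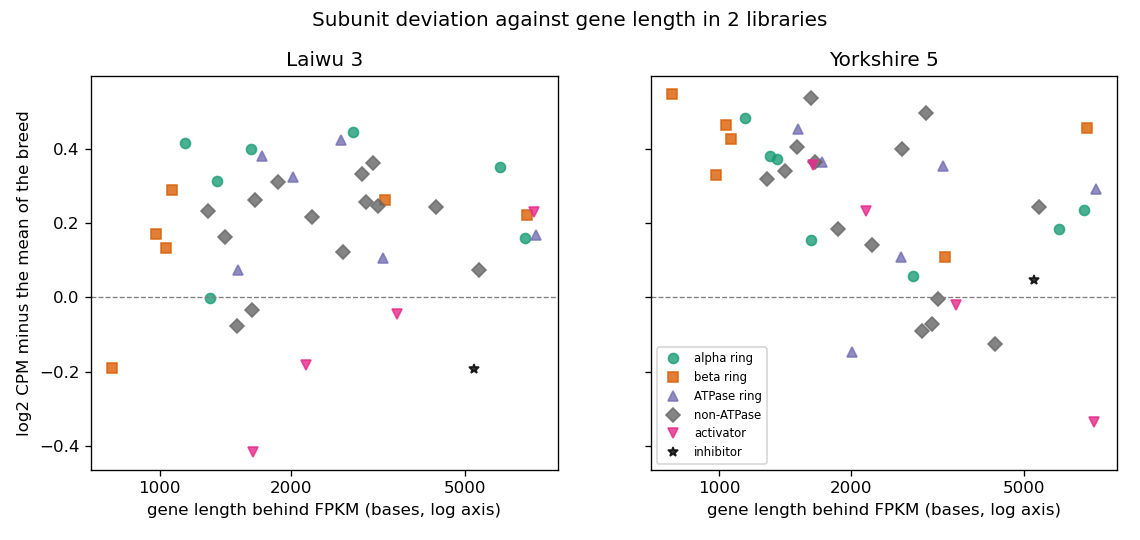
Deviation of the 38 members from their breed mean (log2 CPM) against gene length in bases (log axis) in Laiwu 3 (left panel) and Yorkshire 5 (right panel), with 1 symbol per ring or cap. In Yorkshire 5 the points slope downward (Spearman's rho -0.552 over members), while in Laiwu 3 most lie above 0 at all lengths (rho 0.0303).

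Members varied together within breeds. Over the 703 pairs of members, the deviations from the breed mean had a median Pearson's r of 0.366 over 12 libraries, and 80.7% of pairs were above 0. The median over all 62770410 pairs of tested genes was -0.0005. The median among members was 0.329 without Laiwu 3, 0.286 without Yorkshire 5 and 0.222 without both. By ring, the median r was 0.600 within the alpha ring, 0.596 within the beta ring, 0.556 within the ATPase ring and 0.352 among the PSMD genes. Without both libraries the alpha ring stayed at 0.590, while the beta ring was at 0.326, the PSMD genes at 0.186 and the ATPase ring at 0.000449. With any 1 library left out the alpha ring ran from 0.459 (without Laiwu 6) to 0.655 (without Yorkshire 2). These values describe these libraries only, since the pairs share libraries, depth and scaling.

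**Figure D5:**
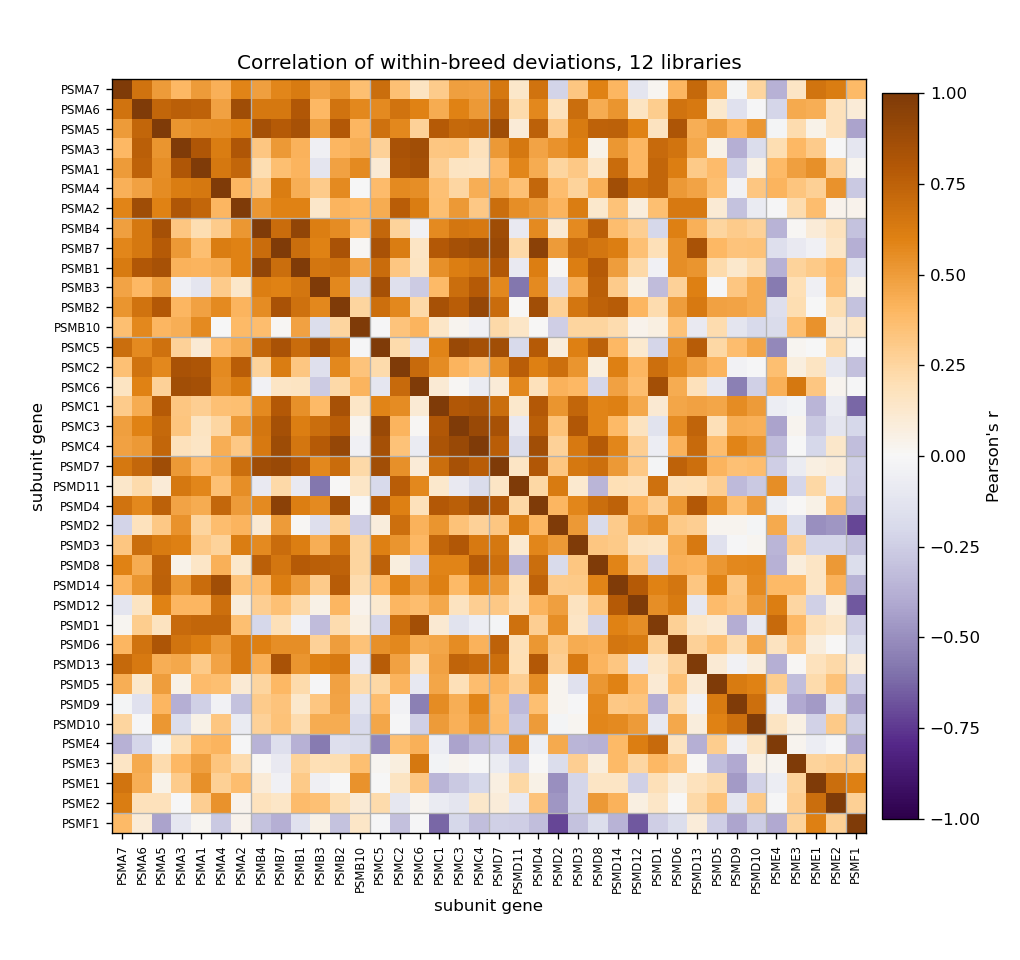
Pearson's r between the within-breed deviations of each pair of the 38 members over 12 libraries, from -1 (purple) to 1 (brown), with grey lines between rings and caps. The block of 7 alpha subunits at the upper left is brown throughout (median r 0.600), and the rows of PSME4 and of PSMF1 at the bottom are mostly pale or purple.

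The closest pair was PSMB7 with the ubiquitin receptor PSMD4, at r = 0.948, followed by the structural beta subunits PSMB4 and PSMB1, at 0.929. PSMB7 had the highest median r with the other members, 0.596, and PSMB10, which replaces it in the immunoproteasome, had r = 0.0113 with PSMB7, from -0.137 without Laiwu 3 to 0.254 without Laiwu 4. PSMF1, PSME4 and the chaperone PSMD9 had the lowest medians. PSMF1 had a median r of -0.243 with the other members and was at -0.713 with PSMD2. PSME4 had a median of -0.0548 and PSMD9 one of 0.0303. Among subunits of the mature cap, PSMD11 and PSMD1 were also low, at 0.153 and 0.164. PSME1 and PSME2, the partners in a single cap, had medians of 0.150 and 0.173 with the other members and r = 0.688 with each other, from 0.594 without Laiwu 6 to 0.740 without Yorkshire 2.

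The genes that build, assist and supply the proteasome were likewise not called, with 0 members of any list past the threshold and 0 at an unadjusted p under 0.05 by edgeR, against the shares of all tested genes given above. Among assembly chaperones outside the PSM letters of the rule, POMP, which guides maturation of the core particle, was the highest, at 16.2 ± 2.79 FPKM in Laiwu pigs and 15.5 ± 1.38 FPKM in Yorkshire (SD, n = 6 each). The 5 measured chaperones (1 above 0, 4 below) had a median log2 fold change of -0.10. Of the 6 measured partners of the cap (5 above 0, 1 below, median 0.04), ECPAS, an adaptor that tethers proteasomes to other structures, was the highest, at 70.4 ± 11.1 FPKM in Laiwu pigs and 61.8 ± 15.6 FPKM in Yorkshire. The ubiquitin receptor ADRM1 was at 26.3 ± 1.69 FPKM in Laiwu pigs and 28.2 ± 5.94 FPKM in Yorkshire, and the deubiquitinase USP14 at 22.2 ± 2.88 FPKM in Laiwu pigs and 20.2 ± 2.63 FPKM in Yorkshire.

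NFE2L1, the transcription factor that restores proteasome gene expression when proteolysis is blocked, was at 72.2 ± 11.3 FPKM in Laiwu pigs and 73.3 ± 12.6 FPKM in Yorkshire, a log2 fold change of -0.04 ± 0.12 (SE). Its relative NFE2L2 was at 19.1 ± 3.43 FPKM in Laiwu pigs and 16.7 ± 2.45 FPKM in Yorkshire. The list of transcription factors and their control had 3 of 6 above 0 and a median of 0.02. VCP, the segregase that pulls ubiquitinated proteins out of complexes, was at 55.7 ± 8.68 FPKM in Laiwu pigs and 52.4 ± 4.91 FPKM in Yorkshire, and the list of shuttles and segregase had 4 of 8 above 0 and a median of -0.01. UBB, a polyubiquitin gene, stood above every subunit, at 578.7 ± 78.7 FPKM in Laiwu pigs and 608.7 ± 131.9 FPKM in Yorkshire, while RPS27A, which encodes ubiquitin fused to a ribosomal protein, was at 38.4 ± 3.49 FPKM in Laiwu pigs and 37.9 ± 3.86 FPKM in Yorkshire, within the range of the subunits. The assembly chaperone and cap partner sums were highest among Laiwu libraries in Laiwu 3, at 46.3 and 205.4 FPKM against Laiwu medians of 38.4 and 180.03 FPKM. Yorkshire 5, where 31 members lay above the breed mean, had the highest chaperone sum of its breed, 41.2 FPKM, against a Yorkshire median of 39.9 FPKM. Yorkshire 3 was close to it, also at 41.2 FPKM. The cap partner sum of Yorkshire 5 was the lowest of its breed, at 151.6 FPKM against a Yorkshire median of 167.8 FPKM. Its shuttle and segregase sum was also the lowest, at 252.7 FPKM. The ubiquitin and E1 sum was highest of its breed in Laiwu 3 and in Yorkshire 5, at 1033 and 1138 FPKM. The breed medians of that sum were 812.3 and 826.1 FPKM.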

How the data were processed

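Poly(A) RNA was made into strand-marked libraries, per the labels' protocols. Per the series' design text, an Illumina NovaSeq was used and reads were aligned to Sscrofa11.1 with HISAT2 2.2.1. Other tools in the submitters' processing notes, given with no role, are cutadapt 1.9, FastQC, edgeR, DESeq2 and StringTie 1.3.4d. The deposited table gives a raw count and an FPKM value per gene and library, per the file headers. No source used here gives the annotation release or the filters. Symbols, descriptions and coordinates are those of the table, and 1 chaperone, PSMG2, was matched by its description.

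The 11205 genes whose mean reached 0.5 FPKM were tested with edgeR 4.0.16 (TMM, robust quasi-likelihood, no covariate, adjusted p under 0.05) in R 4.3.3, Laiwu minus Yorkshire, and the script was tested on simulated data. SE and 95% intervals came from the fold change, its F statistic and total degrees of freedom. Gene length was the count divided by FPKM and library total. limma 3.58.1 and DESeq2 1.42.0 gave alternatives, and SciPy 1.17.1 the permutation test. The members and lists were chosen with earlier results of these data known. Fold changes were named for the 6 members of smallest p, for PSMB7 and PSMB10, the PSME genes and PSMF1, for PSMB6 (not a member by symbol), and for any member whose breeds did not overlap. The rule also lists PSMB5, which was not analysed here. NFE2L1 and the genes singled out for their correlation, spread or level were chosen after their values were seen. A result that rests on a withheld item is not reported here.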

Additional observations from a re-analysis of the deposited data

Results flagged for a closer look

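In 5 of the 76 groups of 6 libraries checked, that is each member in each breed, 1 library lay far from the others, where chance gives about 1 in 20, or 3.8. In 4 of these the library was Laiwu 3. PSMD7 stood at 100.3 FPKM in Laiwu 3, where the other Laiwu libraries ran from 74.5 to 78.96 FPKM. PSMD2 was at 94.6 FPKM there, against 58.5 to 70.8 FPKM in the others. PSMB7 was at 60.6 FPKM, against 41.4 to 47.2 FPKM, and PSMA5 at 38.9 FPKM, against 23.02 to 27.8 FPKM. The other case was PSMC5 in Yorkshire 5, at 140.8 FPKM, against 96.6 to 112.1 FPKM in the other Yorkshire libraries. Since members correlate, the 4 values of Laiwu 3 are not separate cases.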

How the results depend on the processing

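The count of 0 called members held under all 25 alternatives, and the median log2 fold change over members stayed between -0.07 (without Laiwu 3) and 0.05 (limma on TPM). The number at an unadjusted p under 0.05 was 0 in the main test, 1 on every gene with at least 1 count, 2 by limma on FPKM with a pseudocount of 1, 0.1 or 5, 1 by voom with quality weights, and 0 to 2 with 1 library left out. The number above 0 was 25 by limma on TPM, 24 by voom with quality weights, and 6 to 23 with 1 library left out. The replicate numbers of the titles are not said to pair the samples. Deviations of same-numbered libraries correlated at -0.285 to 0.301, over 0.1 for 1 of 6 pairs. Pairs of unlike number were not compared, so these values cannot decide whether the numbers pair samples. With the number as a replicate block, 1 member was at an unadjusted p under 0.05, PSME1 (log2 fold change -0.36, edgeR adjusted p = 0.921), and 0 were called. Of the 11 named members, 8 kept their direction throughout. PSMB7 (-0.01 in the main test) was at 0.0148 with the library total alone, 0.0173 on genes of at least 5 FPKM, 0.0203, 0.0207 and 0.0185 by limma with a pseudocount of 1, 0.1 and 5, 0.0732 on TPM, 0.0615 by voom, 0.00108 with the replicate block, 0.0264 without both Laiwu 3 and Yorkshire 5 (an alternative added after seeing the data), and -0.0761 to 0.0902 with 1 library left out. PSMF1 (-0.01) was at 0.00732 with the library total alone, 0.0117 on genes of at least 5 FPKM, 0.0112, 0.0128 and 0.00721 by limma with these pseudocounts, 0.0628 on TPM, 0.0343 without both libraries, and -0.0553 to 0.0229 with 1 left out. PSME3 (-0.02) was at 0.0470 on TPM. The cause was not tested. The ratio of PSMB10 to PSMB7 stayed below 0, from -0.44 without Laiwu 4 to -0.15 without Laiwu 5, with exact permutation p from 0.0693 to 0.593.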
